A study of Mus musculus with 8 samples.

Results

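Kainate receptors are a class of ionotropic glutamate receptor, and the 7 genes described here encode their pore-forming subunits (Grik1 to Grik5) and their auxiliary subunits (Neto1 and Neto2). They were chosen by gene name from a table of 31417 genes, and all 7 were present and passed the filter on low counts. The samples were striata of mice aged 12 months, with 4 Dclk3 knockout (KO) and 4 wild-type (WT) control mice, and each library came from a single striatum of 1 mouse. The sources used here do not state the strain, the sex, which part of Dclk3 was deleted or how the knockout was made. The comparison asks which transcripts differ in the adult striatum of Dclk3 knockout mice. Dclk3 is a kinase gene with high expression in striatal neurons.

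A kainate receptor is a tetramer. The subunits GluK1, GluK2 and GluK3 (Grik1, Grik2, Grik3) bind glutamate with lower affinity and can form working channels alone, whereas GluK4 and GluK5 (Grik4, Grik5) bind it with higher affinity and need a partner from the first group. Neto1 and Neto2 are single-pass membrane proteins that associate with the receptor and slow its kinetics. In the striatum, kainate receptors act on both sides of the synapse and modulate transmitter release and the excitability of spiny neurons and interneurons.

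The coding stretch of the pore loop can be compared between the subunit genes. Each stretch below is 60 bases of the sense strand, 5′ to 3′, from the GENCODE transcripts of GRCm38, with the glutamine codon of the Q/R position in capitals. In mammals this codon is edited in Grik1 and Grik2 transcripts by adenosine deaminases acting on RNA, which lowers the calcium permeability of the channel. Gene counts hold no information on editing, so it was not measured here.
Grik1: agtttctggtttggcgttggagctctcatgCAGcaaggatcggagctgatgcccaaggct
Grik2: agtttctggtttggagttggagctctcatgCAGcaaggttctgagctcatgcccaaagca
Grik3: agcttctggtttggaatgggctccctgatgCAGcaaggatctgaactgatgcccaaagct
Grik4: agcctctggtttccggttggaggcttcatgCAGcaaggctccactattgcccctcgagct
Grik5: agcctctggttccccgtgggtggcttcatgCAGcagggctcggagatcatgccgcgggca
The stretches lie at chr16:87936093-87940574 on the minus strand (Grik1), chr10:49240774-49244361 on the minus strand (Grik2), chr4:125691177-125693984 on the plus strand (Grik3), chr9:42547596-42547655 on the minus strand (Grik4) and chr7:25022470-25022529 on the minus strand (Grik5). Those of Grik1, Grik2 and Grik3 cross an exon junction, so the interval includes an intron, and those of Grik4 and Grik5 lie within 1 exon. Grik1 and Grik2 differed at 6 of the 60 bases, and Grik3 differed from each of them at 11. Grik4 and Grik5 differed from each other at 16 bases and from the other genes at 18 to 24.

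Total counts were 24441242 to 34919463 in the KO libraries and 28776767 to 37145559 in the WT libraries. Dclk3 itself had 27.7, 19.6, 20.9 and 22.7 CPM (counts scaled to a common library size) in KO libraries 1 to 4, against 95.2, 117, 80.9 and 86.1 CPM in WT libraries 1 to 4, a log2 fold change of -2.06 (SE 0.14, edgeR adjusted p = 0.000773). Defining markers of spiny neurons were abundant, with a sum over 10 markers of 4265 to 4892 CPM in KO and 4326 to 5136 CPM in WT libraries. Of 10 marker lists for striatal, neighbouring and glial cell types, no marker was at 0 counts in any library. Choroid plexus markers reached 2882 CPM in WT 4, against 49.1 to 238 CPM in KO libraries and 38.2 to 87.4 CPM in WT 1 to 3. The libraries also differed in cortical, thalamic and oligodendrocyte markers, and the cortical and thalamic values are given after Grik3. Oligodendrocyte markers, summed over 7 genes, were 10383, 8803, 8906 and 10415 CPM in KO libraries 1 to 4. In WT libraries 1 to 4 they were 9855, 7221, 8626 and 7806 CPM. The part of these cell types in the values of the 7 genes was not tested.

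Grik5 was the most highly expressed subunit gene of the family and Grik1 the lowest, in every library. Levels of different genes were compared as CPM per kilobase of the union of annotated exons. On this scale Grik5 averaged 41.3 ± 0.821 in KO and 44.3 ± 2.75 in WT striata (SD, n = 4 each). Neto2 followed at 25.6 ± 2.32 in KO and 24.4 ± 2.42 in WT, Grik3 at 17.6 ± 2.01 in KO and 19.1 ± 0.933 in WT, and Neto1 at 11.7 ± 0.518 in KO and 12.2 ± 0.422 in WT. Grik2 lay at 5.08 ± 0.0419 in KO and 4.80 ± 0.394 in WT, Grik4 at 3.95 ± 0.407 in KO and 4.42 ± 0.625 in WT, and Grik1 at 1.70 ± 0.0725 in KO and 1.54 ± 0.0251 in WT. Among neighbours in this order only Grik2 and Grik4 had overlapping ranges over the 8 libraries, with Grik2 higher than Grik4 in 7 of them. With the longest annotated transcript as the length, the order was the same and Grik2 was higher than Grik4 in all 8 libraries.

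**Figure D1:**
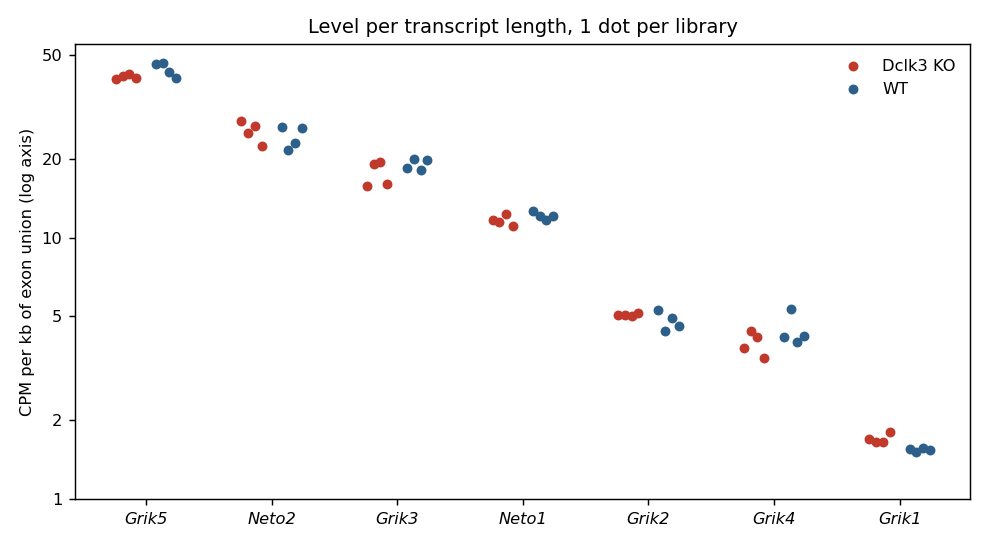
Level of each gene in CPM per kilobase of exon union (log axis), 1 dot per library, Dclk3 KO to the left of WT within each gene. Genes run from Grik5, at 40.5 to 46.5, down to Grik1, at 1.51 to 1.81, and the ranges of the genotypes overlap for each gene except Grik1.

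Per length, transcripts of the higher-affinity subunits made up the larger part of kainate receptor mRNA. Grik5 alone was 59.3% ± 1.498 of the Grik total in KO and 59.7% ± 1.53 in WT, and Grik3 was 25.2% ± 1.77 in KO and 25.8% ± 1.51 in WT (SD, n = 4 each). The summed level of Grik1, Grik2 and Grik3 was 0.539 ± 0.0290 of that of Grik4 and Grik5 in KO and 0.525 ± 0.0359 in WT. Neto2 exceeded Neto1 by a ratio of 2.04 to 2.38 in KO and 1.79 to 2.168 in WT libraries. Set beside the other ionotropic glutamate receptors, the 5 Grik genes summed to 69.6 ± 3.08 CPM per kilobase in KO and 74.1 ± 3.27 in WT. The 4 AMPA receptor genes summed to 168 ± 3.30 in KO and 166 ± 1.99 in WT, and the 7 NMDA receptor genes to 82.2 ± 2.84 in KO and 86.5 ± 7.55 in WT. Kainate receptor genes thus held 19.99% to 22.2% of the sum over the kainate, AMPA, NMDA and delta classes in single libraries.

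None of the 7 genes passed the test for a difference between KO and WT striatum. Of them 3 were above 0 on the log2 fold change scale (Grik1, Grik2 and Neto2) and the others below, with a median of -0.061 beside -0.0011 over all 16511 genes tested. Over all those genes, edgeR's quasi-likelihood test (p adjusted after Benjamini and Hochberg) called 0.00606% (1 gene, Dclk3) at an adjusted p under 0.05, and 3.76% had an unadjusted p under 0.05. Of the 7 genes 0 reached an unadjusted p under 0.05 in the main edgeR fit, and 0 were called by the DESeq2 Wald test or limma-voom. All 7 had an adjusted p of 0.999. The 95% intervals of the fold changes ran from 0.764 at the lowest (Grik4) to 1.24 at the highest (Grik1), so changes beyond those bounds lay outside every interval.

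**Figure D2:**
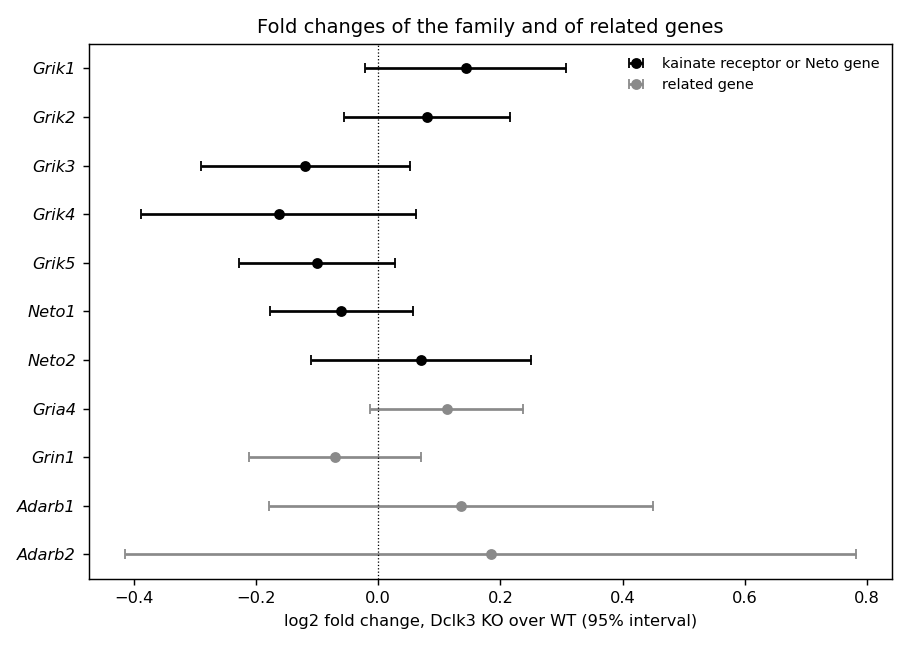
Log2 fold change of KO over WT with its 95% interval for the 7 genes (black) and for 4 related genes of the receptor and editing lists (grey). Every interval includes 0, and those of the 7 genes lie between -0.39 and 0.31.

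Grik1 (ENSMUSG00000022935, chromosome 16, 87895900 to 88290265, minus strand) encodes GluK1, the subunit typical of some interneurons. It measured 11.4, 11.1, 11.1 and 12.2 CPM in KO libraries 1 to 4, against 10.5, 10.1, 10.5 and 10.3 CPM in WT libraries 1 to 4. All KO libraries lay above all WT libraries, with KO 4 highest. It was the only one of the 7 genes whose groups did not overlap, a pattern shown by 1.93% of all genes tested. Grik1 had a log2 fold change of 0.14 (SE 0.08, 95% interval -0.02 to 0.31, edgeR adjusted p = 0.999), so the difference did not pass the test. Grik1 rested on 277 to 387 counts per library. The exact Poisson 95% interval of the lowest KO library, KO 3, was 10.0 to 12.3 CPM. It spanned every WT value, as did those of KO 1 and KO 2. That of KO 4, at 10.9 to 13.5 CPM, lay above every WT value. Intervals of single libraries do not measure the difference between the groups. The coefficient of variation of Grik1 among WT libraries was 1.63%, below the 5.44% that counting alone gives on average at this depth. Interneuron markers summed to 430 to 561 CPM over 10 genes in KO and 404 to 544 CPM in WT libraries, and their part in the Grik1 values was not tested. Sst was the largest of the 10 interneuron markers, at 103 to 165 CPM in KO and 109 to 197 CPM in WT libraries. Pvalb, another of them, was 47.4 to 84.7 CPM in KO and 44.6 to 52.4 CPM in WT libraries. The order of the libraries thus depended on the marker. Astrocyte markers, summed over 7 genes, were 5651 to 6180 CPM in KO and 5156 to 5729 CPM in WT libraries. Most of each sum came from Slc1a2, at 4054 to 4635 CPM in KO and 3782 to 4433 CPM in WT libraries, so it says little of the other markers. The part of astrocytes in the Grik1 values was not tested either.

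Grik2 (ENSMUSG00000056073, chromosome 10, 49094833 to 49788766, minus strand) encodes GluK2, the main low-affinity subunit in much of the forebrain. Its values were 67.3, 67.2, 66.6 and 67.9 CPM in KO libraries 1 to 4, against 70.0, 58.2, 65.5 and 60.8 CPM in WT libraries 1 to 4. The KO values all lay inside the WT range, which was set by a high WT 1 and a low WT 2. The annotation places other genes inside introns of Grik2, but none shares an exon with it. The KO libraries varied by 0.825%, under the counting error of 2.28%, and the WT libraries by 8.19%. Grik2 gave a log2 fold change of 0.08 (SE 0.06, 95% interval -0.06 to 0.22, edgeR adjusted p = 0.999). It was 0.13 without WT 1 and 0.040 without WT 2.

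Grik3 (ENSMUSG00000001985, chromosome 4, 125490700 to 125714173, plus strand) encodes GluK3, a subunit with an unusually low sensitivity to glutamate. It measured 141, 172, 175 and 144 CPM in KO libraries 1 to 4, against 166, 180, 163 and 178 CPM in WT libraries 1 to 4. KO 1 and KO 4 lay below every WT library and KO 2 and KO 3 inside the WT range, so the groups overlapped. On the log2 scale KO minus WT was -0.12 for Grik3 (SE 0.08, 95% interval -0.29 to 0.05, edgeR adjusted p = 0.999). In an alternative chosen after seeing the data, without KO 1 and KO 4, the value was 0.02 (SE 0.07), on the other side of 0. Without KO 1 alone it was -0.069, and without KO 4 alone -0.076.

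KO 4 also had the lowest cortical and the highest thalamic marker sum. Cortical glutamatergic markers, summed over 8 genes, were 914, 1238, 1144 and 758 CPM in KO libraries 1 to 4, against 1009, 1470, 1202 and 1288 CPM in WT libraries 1 to 4. KO 4 and KO 1 had the lowest of the 8 sums and WT 2 the highest. Most of each sum came from Slc17a7, the vesicular glutamate transporter gene of cortical neurons, at 629, 882, 802 and 545 CPM in KO libraries 1 to 4, against 736, 1159, 890 and 895 CPM in WT libraries 1 to 4. The other 7 markers summed to 285, 356, 342 and 212 CPM in KO libraries 1 to 4, against 273, 311, 312 and 394 CPM in WT libraries 1 to 4. Without Slc17a7, KO 4 was thus still lowest, but KO 1 lay above WT 1, and WT 2 lay below KO 2, KO 3, WT 3 and WT 4. Thalamic glutamatergic markers, summed over 8 genes, were 352, 220, 196 and 552 CPM in KO libraries 1 to 4. In WT libraries 1 to 4 they were 234, 326, 195 and 214 CPM. KO 4 was thus the highest by far, and KO 1 was next, with WT 2 close below it. All 8 cortical and all 8 thalamic markers were detected in each library. Their part in the Grik3 and Grik4 values was not tested, and in bulk tissue fewer cells of a type and less RNA per cell cannot be told apart.

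**Figure D3:**
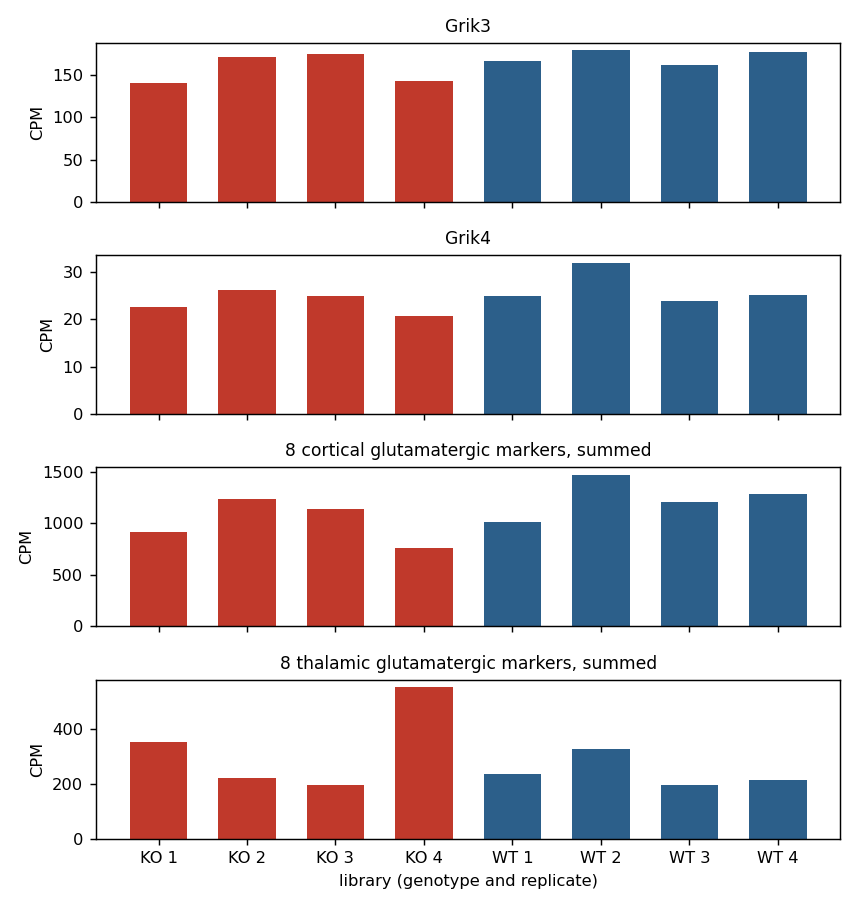
Grik3, Grik4 and the summed cortical and thalamic markers in each library, in CPM, with KO libraries left of WT libraries. KO 1 and KO 4 have the lowest Grik3 (141 and 144 CPM), Grik4 (22.6 and 20.7 CPM) and cortical sums and the highest thalamic sums, and WT 2 has the highest Grik4 and cortical sum, of which Slc17a7 alone gives 1159 CPM.

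Grik4 (ENSMUSG00000032017, chromosome 9, 42518135 to 42944493, minus strand) encodes GluK4 and lies on the chromosome of Dclk3, 68.5 Mb away from it. It measured 22.6, 26.2, 24.8 and 20.7 CPM in KO libraries 1 to 4, against 24.9, 31.9, 23.7 and 24.97 CPM in WT libraries 1 to 4. KO 1 and KO 4 were below all WT libraries, KO 2 and KO 3 were within the WT range, and WT 2 stood above all others. A small RNA gene overlaps an exon of Grik4 on the same strand in the annotation. Grik4 varied more between libraries than any other of the 7 genes, with a ratio of 1.54 between the highest and the lowest. Its log2 fold change was -0.16 (SE 0.10, 95% interval -0.39 to 0.06, edgeR adjusted p = 0.999), and it was -0.06 without WT 2 and -0.11 without KO 4. Without KO 1 and KO 4 it was -0.05 (SE 0.12).

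Grik5 (ENSMUSG00000003378, chromosome 7, 25009849 to 25072346, minus strand) encodes GluK5, the high-affinity partner found in most brain kainate receptors. Its values were 209, 215, 218 and 210 CPM in KO libraries 1 to 4, against 240, 240, 224 and 211 CPM in WT libraries 1 to 4. WT 4 lay among the KO libraries while WT 1, WT 2 and WT 3 lay above all of them. The fitted log2 fold change of Grik5 stood at -0.10 (SE 0.06, 95% interval -0.23 to 0.03, edgeR adjusted p = 0.999). Without WT 4, the library rich in choroid plexus markers, the value was -0.14 with an unadjusted p of 0.0333 in edgeR. In that setting 1113 of 16676 genes had an unadjusted p under 0.05, against 620 of 16511 in the main fit. Limma-voom on all 8 libraries gave Grik5 an unadjusted p of 0.0456. The adjusted p of Grik5 over all alternatives was 0.629 or higher. The part of choroid plexus in the Grik5 values was not tested.

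The balance of subunits followed from these values and is given without a test. Per length, the ratio of Grik5 to Grik2 was 7.97, 8.21, 8.41 and 7.94 in KO libraries 1 to 4, against 8.79, 10.6, 8.74 and 8.89 in WT libraries 1 to 4. Here the KO libraries all lay below the WT libraries, by a narrow margin and with WT 2 far above the rest. The share of Grik1 in the Grik total was 2.28% to 2.69% in KO and 1.94% to 2.174% in WT libraries, also without overlap. This share is built from the same Grik1 values whose groups did not overlap, so it is not a separate result. Shares of Grik2 (6.92% to 7.64% in KO, 5.65% to 6.95% in WT), Grik3, Grik4 and Grik5 overlapped between the genotypes. With the longest transcript as the length, the shares of Grik2 did not overlap, by a narrow margin. The lowest KO library had 8.058% and the highest WT library 8.056%. These patterns come from several shares and ratios of the same genes. How often ratios or shares of other genes do not overlap between the genotypes was not computed.

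Neto1 (ENSMUSG00000050321, chromosome 18, 86394952 to 86506718, plus strand) encodes an auxiliary subunit known from hippocampal kainate receptors. It measured 98.0, 96.3, 102.8 and 92.3 CPM in KO libraries 1 to 4, against 106.1, 101.0, 97.5 and 101.6 CPM in WT libraries 1 to 4. The groups overlapped, with KO 4 lowest and WT 1 highest, and Neto1 was the least variable of the 7 genes, with a coefficient of variation of 4.31% over the 8 libraries. For Neto1 the log2 fold change came to -0.06 (SE 0.05, 95% interval -0.18 to 0.06, edgeR adjusted p = 0.999). It was -0.036 without KO 4 and -0.040 without WT 1. An antisense gene overlaps exons of Neto1 in the annotation, and with no strand setting stated for the counting, reads of both could be counted together.

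Neto2 (ENSMUSG00000036902, chromosome 8, 85636588 to 85700924, minus strand) encodes the auxiliary subunit with the higher level in these striata. Its values were 171, 155, 164 and 138 CPM in KO libraries 1 to 4, against 162, 133, 142 and 162 CPM in WT libraries 1 to 4. Both groups covered nearly the same range, and KO 4 and WT 2 were low in their own group. Neto2 had a fitted log2 difference of 0.07 (SE 0.08, 95% interval -0.11 to 0.25, edgeR adjusted p = 0.999), and it ran from 0.017 (without WT 2) to 0.13 (without KO 4) with single libraries left out. It was 0.027 without KO 1, 0.045 without WT 3, 0.048 without KO 3, 0.11 without WT 1 or WT 4, and 0.17 without both replicates 4.

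**Figure D4:**
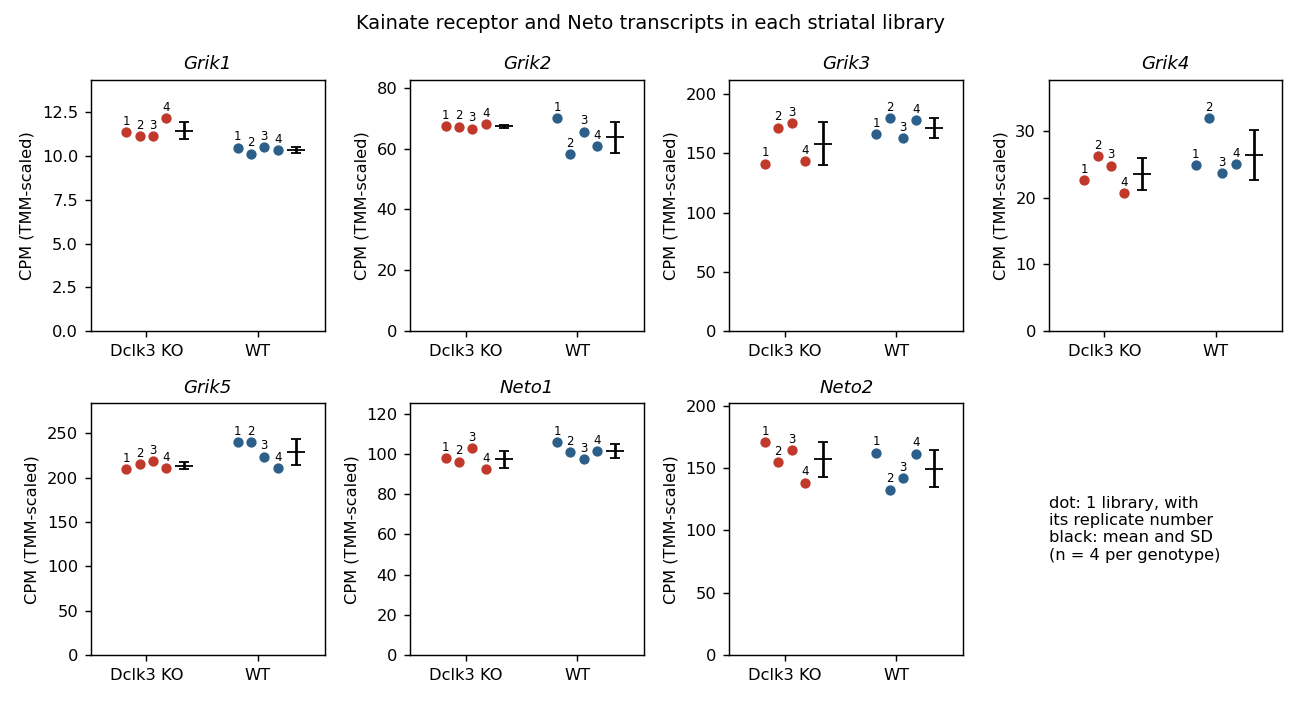
CPM of the 7 genes in each library (dots, with replicate numbers), KO left of WT, with the mean and SD of each genotype in black (n = 4 each); every axis starts at 0. Grik1 is the panel in which the groups do not meet (11.1 to 12.2 CPM in KO, 10.1 to 10.5 CPM in WT), and KO 1 and KO 4 are low in the Grik3 and Grik4 panels.

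None of the related genes examined beside the family was called. In the main edgeR fit 0 of them had an unadjusted p under 0.05, and DESeq2 and limma-voom called 0. Of the 13 AMPA, NMDA and delta receptor subunit genes 12 were tested, and 0 were called higher and 0 lower, and their log2 fold changes had a median of -0.0085 and a range of -0.18 to 0.11. Gria4, an AMPA receptor subunit gene, averaged 128 ± 4.005 CPM in KO and 118 ± 7.26 CPM in WT (SD, n = 4 each). Its log2 fold change was 0.11 (SE 0.06, edgeR adjusted p = 0.999). Without WT 4 it was 0.15, with an unadjusted p of 0.0190 in edgeR. Limma-voom on all 8 libraries gave Gria4 an unadjusted p of 0.0330. The adjusted p of Gria4 over all alternatives was 0.590 or higher. Grin1, the obligatory NMDA receptor subunit gene, had -0.07 (SE 0.07), and -0.035 without WT 2. Of 16 genes for scaffolds, extracellular ligands and trafficking partners of kainate receptors 15 were tested, 0 were called in either direction, and the median was -0.023.

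The RNA editing enzymes were likewise not called (0 higher and 0 lower of 3, median 0.14). Adarb1, which encodes the deaminase ADAR2 that edits the Q/R codon, had 304, 255, 267 and 398 CPM in KO libraries 1 to 4, against 275, 324, 249 and 266 CPM in WT libraries 1 to 4. Its log2 fold change of 0.14 (SE 0.14) rested on KO 4 and was -0.02 without that library. KO 4 also had the highest marker sums for thalamic neurons, interneurons, oligodendrocytes and their precursors, microglia and endothelial cells. The part of these cell types in the Adarb1 values was not tested. Adarb2, a paralog without known editing activity, had 0.18 (SE 0.26) and was -0.11 without KO 4. Without both replicates 4 it was -0.23, with an unadjusted p of 0.0455 in edgeR (adjusted p = 0.590). Grin1 and Adarb2 overlap other annotated genes whose reads their counts could include, as does Gria4, which contains a small RNA gene.

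Genes with the most similar profile were sought for each of the 7 genes among 11355 genes, by Pearson's r of log2 CPM over the 8 libraries. These values only describe the libraries: the genes were picked for the highest r, all points share the same libraries and their tissue makeup, and no p is given. Grik1 was most like Gjb6, the astrocyte connexin gene (r = 0.944, rho = 0.905), Tmem189 (r = 0.942, rho = 0.833) and Osbpl9 (r = 0.936, rho = 0.929). Gjb6 had 42.0 to 60.0 CPM in KO and 35.4 to 40.5 CPM in WT libraries, so its groups did not overlap either. That split, shown by 1.93% of all genes tested, enters its r with Grik1. For Grik2 the most similar genes were Sfxn5, a mitochondrial carrier gene (r = 0.965, rho = 0.929), Slc30a10, a manganese exporter gene (r = 0.956, rho = 0.786), and Cyp2j12, a cytochrome P450 gene (r = 0.952, rho = 0.929). Grik3 was nearest to the kinesin gene Kif21b (r = 0.951, rho = 0.976), the cilium gene Nphp4 (r = 0.950, rho = 0.905) and the neurotrophin gene Bdnf (r = 0.949, rho = 0.952).

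Grik4 was nearest to Pitpnm3, a phosphatidylinositol transfer protein gene (r = 0.993, rho = 0.905), the presynaptic gene Rimbp2 (r = 0.985, rho = 0.857) and Skil, a transcriptional corepressor gene (r = 0.978, rho = 0.929). Grik5 was nearest to Mrrf, a mitochondrial ribosome recycling factor gene (r = 0.987, rho = 0.905), Sez6, a neuronal membrane protein gene (r = 0.977, rho = 0.905), and the kinase gene Tesk1 (r = 0.974, rho = 0.952). Neto1 was closest to the autophagy gene Atg14 (r = 0.952, rho = 0.976), Scaf4 (r = 0.935, rho = 0.905) and Gnl1 (r = 0.932, rho = 0.881). Neto2 was closest to Kcnab1, a potassium channel beta subunit gene (r = 0.988, rho = 0.976), Clspn, the claspin gene (r = 0.975, rho = 0.929), and Rasgef1b (r = 0.947, rho = 0.810). With the 2 libraries farthest from the median of each kainate receptor or Neto gene left out, r stayed at 0.700 (Nphp4 with Grik3) or above, up to 0.995 (Atg14 with Neto1). Kcnab1 with Neto2 (0.982) and Pitpnm3 with Grik4 (0.953) changed little. Of these genes Tmem189, Osbpl9, Slc30a10, Nphp4, Bdnf, Rimbp2, Mrrf, Tesk1, Atg14, Scaf4, Gnl1, Kcnab1, Clspn and Rasgef1b overlap another annotated gene.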

How the data were processed

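The authors deposited raw read counts per Ensembl gene, 1 column per library, per the file header. Per the labels' protocols, libraries were stranded (dUTP), poly(A)-selected and amplified for 12 PCR cycles. Per the submitters' processing notes, bcl2fastq 2.17.1.14 was used and the build was mm10. No source used here names the aligner, the counter or the strand setting. Symbols, positions and exon lengths came from GENCODE annotation of GRCm38 (31292 identifiers matched, 125 did not).

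The counts were tested with edgeR 4.0.16 (R 4.3.3): filterByExpr with a minimum count of 10 (16511 genes), TMM scaling, and a robust quasi-likelihood fit on genotype over all 8 libraries. Two-sided p-values were Benjamini-Hochberg adjusted over all genes tested (threshold 0.05). CPM values are TMM-scaled. Poisson intervals cover only counting error. They are too narrow even for that where reads are PCR copies, which are not separate molecules. Chi-square per degree of freedom was 7.07 or more for each pair of libraries within a genotype, so none was a copy. Alternatives used DESeq2 1.42.0, limma 3.58.1, other scalings and filters, a replicate block and left-out libraries. The fit was also checked on simulated data. The members and gene lists were chosen with earlier results of these data known. Named genes were all 7 members, per related list the 2 with the smallest p and any called, and per member the 3 most alike (mean of at least 5 CPM, no predicted genes). Some genes that this rule names are not reported here.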

Additional observations from a re-analysis of the deposited data

Results flagged for a closer look

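Grik4 in WT 2, at 31.9 CPM, stood apart from the other WT libraries (23.7 to 24.97 CPM), with a gap of 0.845 of the group's range, above the 95% critical value for groups of 4 libraries. It was the 1 value so marked among 28 groups examined, where chance marks about 1 in 20 groups. WT 2 also had the highest cortical marker sum (1470 CPM), most of it from Slc17a7 (1159 CPM), while its sum over the other 7 cortical markers (311 CPM) was below those of 4 libraries, and the part of those markers in the value was not tested.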

How the results depend on the processing

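Of the 7 genes 0 were called in the main analysis and in all 17 alternatives, and the direction of Grik1, Grik2, Grik4, Grik5, Neto1 and Neto2 was the same in each. Grik3 turned to 0.015 without Dclk3 KO replicates 1 and 4, an alternative chosen after seeing the data. In that setting Adarb1 and Adarb2 were at -0.094 and -0.19, and without both replicates 4 at -0.039 and -0.23. With 1 library left out at a time, Adarb1 ran from -0.017 to 0.22 and Adarb2 from -0.11 to 0.32. The count of genes called among all tested was 1 in the main analysis, 2 in DESeq2 (Dclk3 and Malat1), 3 without both replicates 4 (with Gpr101 and Gm26917) and 1 to 2 with single libraries left out (2 without WT replicate 1). With no filter on low counts Dclk3 had a log2 fold change of -2.07 and an adjusted p of 0.0647 in edgeR, and the 1 gene called was Malat1. The cause of these changes was not tested. The share of Grik5 in the KO Grik total was 62.3% with the longest transcript in place of the exon union, since that length differs from the union. The shared replicate numbers did not pair the libraries (same-number correlations 0.0373, 0.0205, 0.0532 and -0.276), and the replicate block called 1 gene, with Grik4 at -0.16 (edgeR p = 0.0745) and no call among the 7 genes. Grik1 had the fewest counts of the 7 genes. Its coefficient of variation was 4.26% in KO and 1.63% in WT libraries, where counting alone gives 5.53% and 5.44% on average. The part of counting error in its difference was not tested.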
